A study of Mus musculus with 3 samples.

Results

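The angiogenic balance of the retinal pigment epithelium (RPE) was followed through 10 genes: the growth factors Vegfa, Vegfb, Vegfc and Pgf, the receptors Flt1 and Kdr, the coreceptors Nrp1 and Nrp2, and the secreted inhibitors Serpinf1 and Thbs1. They were chosen by name, with earlier results of these data known. The array held 15 probes for these 10 genes, out of 35078 mouse probes and 15597 genes that could be named. The study hybridised RNA of RPE from C57BL/6 mice aged 2.5 to 3 months to long-oligonucleotide arrays in 1 colour, with 3 replicate samples. All 3 samples belonged to 1 group, with no treatment, mutant or other tissue to compare with, so the question each measurement answers is whether a gene was read above the negative control spots of the same array. The sources used here do not give the number of mice behind a sample. The p-values of the main settings rest on the spread over these 3 arrays, part of which may be technical.

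The RPE is a single layer of pigmented cells between the photoreceptors and the fenestrated capillaries of the choroid. Vascular endothelial growth factor A binds the receptor tyrosine kinases Flt1 (VEGF receptor 1) and Kdr (VEGF receptor 2) on endothelial cells, with the neuropilins as coreceptors. RPE cells are known to secrete it towards the choroid, where it maintains the capillaries, and to secrete the inhibitor pigment epithelium-derived factor, the product of Serpinf1.

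Each value is first given as scanner intensity, median foreground minus median local background, in the order of replicates 1, 2 and 3. The arrays differed in brightness, with mean intensities over the mouse probes of 831, 476 and 316. The detection threshold was therefore set on each array at a height that 95% of its 94 negative control spots did not exceed (their 95th percentile), which lay at intensities of 133, 72.4 and 53.9. After normalisation, a level is the log2 intensity minus the threshold of the same array, given as mean ± SD over the 3 replicates. A probe was called when this mean was above 0 in limma's one-sided moderated test at a Benjamini-Hochberg adjusted p under 0.05 over all mouse probes. Of the 35078 probes, 8931 (25.5%) were called. Of the 15597 named genes, 6209 (39.8%) had at least 1 called probe and counted as detected. The tissue label was checked with 12 RPE markers, of which 11 were detected, among them Rpe65, the retinoid isomerase of the visual cycle, at 7.88 ± 0.20. The remaining RPE marker, Best1, read -0.74 ± 0.10. Replicate 3 was scanned in a session of its own, so that array and session cannot be told apart.

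Of the 15 probes of the angiogenic genes, 6 were called (40.0%, beside 25.5% of all probes), and 5 of the 10 genes were detected (50%, beside 39.8% of all named genes). The detected genes were Vegfa, Vegfc, Pgf, Flt1 and Thbs1. By role, 3 of the 4 growth factors, 1 of the 4 receptors and coreceptors, and 1 of the 2 inhibitors were detected. Genes with more probes had more chances of a call, and of the 6 member genes with a single probe 3 were detected, beside 3472 of 10288 single-probe genes (33.7%) on the array. The median level over the 10 genes was 0.61, beside -0.18 over all named genes. With a mean deposited normalised value above 500 as the call rule in place of the test, 5 of the 15 probes were called, beside 24.5% of 34288 probes. Under that rule 1 probe of Nrp1 was added, and Pgf and 1 probe of Thbs1 were lost. A probe's brightness also depends on its sequence, so single genes were not ranked by level and medians over genes are given only as a description.

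**Figure D1:**
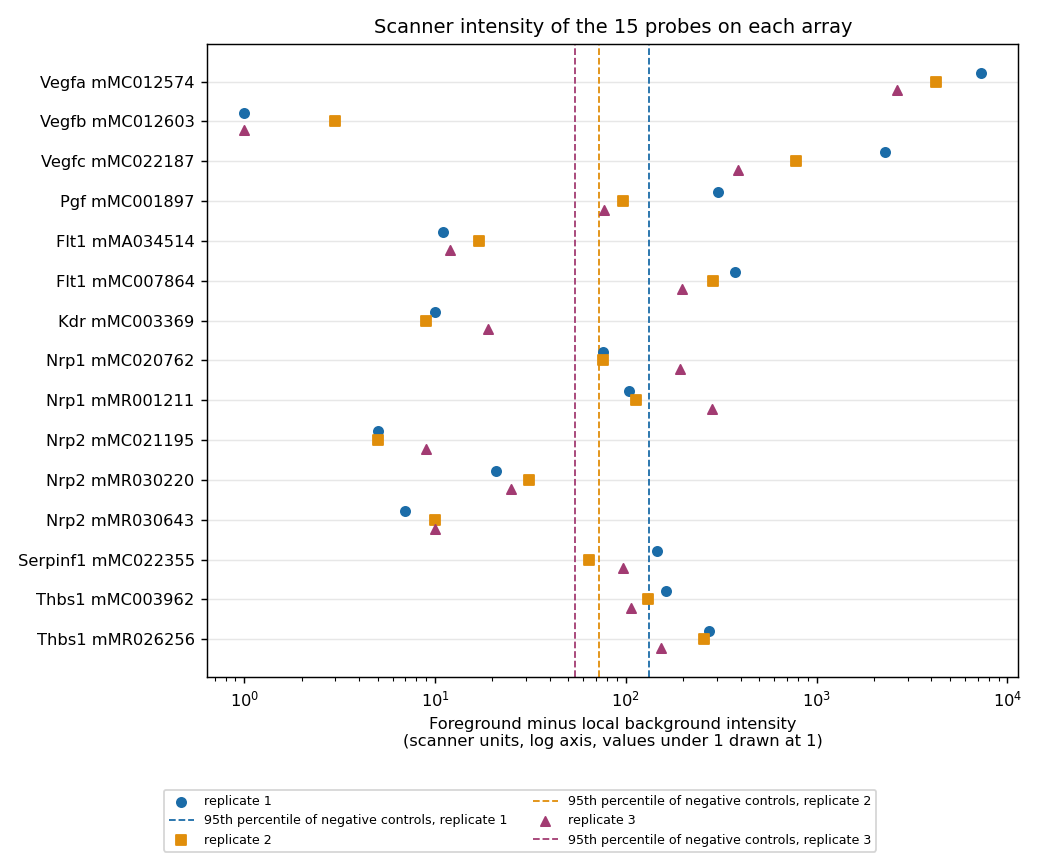
Scanner intensity (foreground minus local background, log axis) of the 15 probes on the 3 arrays, with dashed lines at each array's detection threshold (133, 72.4 and 53.9). Vegfa, Vegfc, Flt1 mMC007864 and Thbs1 mMR026256 stand to the right of their own array's line on every array, while Vegfb, Kdr and the 3 Nrp2 probes stand to the left.

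Vegfa, the main endothelial growth factor of the family, was read far above the controls. Its probe mMC012574 (NM_009505) gave intensities of 7306, 4233 and 2630, brighter than all 94 negative control spots on each array. The level was 4.85, 5.10 and 5.04 in the 3 replicates, a mean of 4.999 ± 0.13 (95% CI 4.79 to 5.21, adjusted p = 8.98e-07, limma). The raw intensities followed the overall brightness of the arrays, and after normalisation the replicates lay closer together than at the median SD of all called probes, 0.22.

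Vegfc, best known as the growth factor of lymphatic endothelium, was also read above all 94 control spots on each array. Probe mMC022187 (NM_009506) gave intensities of 2273, 778 and 389. The level was 3.19, 2.75 and 2.41, a mean of 2.78 ± 0.39 (95% CI 2.37 to 3.19, adjusted p = 4.62e-05, limma). Replicate 1 was the highest and replicate 3 the lowest also after normalisation, and 15.8% of all called probes had an SD at least as large.

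Pgf, placental growth factor, binds Flt1 and not Kdr, and its reading lay close to the threshold. Probe mMC001897 (NM_008827) gave intensities of 306, 97 and 77, above 93, 92 and 92 of the 94 control spots. Its level was 0.75, 0.27 and 0.38, a mean of 0.47 ± 0.25 (95% CI 0.18 to 0.76, adjusted p = 0.0191, limma). All 3 replicates were above the threshold, and the call rested on replicate 1: without it the level was 0.28 with an adjusted p of 0.0573. The call was also lost with plain background subtraction (adjusted p = 0.0542, limma), with no or median scaling (0.104) and on the deposited normalised values (0.113). It was lost as well with the 99th percentile of the controls as threshold (level -0.36) and by a mean deposited value above 500 (mean 469). Of the 10 tested alternatives that gave an adjusted p, 4 kept the call.

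Vegfb, which also binds Flt1 and not Kdr, was at the floor. Probe mMC012603 (NM_011697) gave intensities of 1, 3 and 0, above 1, 2 and 1 of the 94 control spots, and the scanning software flagged the spot as not found on all 3 arrays. The level was -1.27 ± 0.07 (95% CI -1.45 to -1.08). A probe that hybridises poorly and a transcript at a low level cannot be told apart with 1 probe, here as for the other genes below the threshold.

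**Figure D2:**
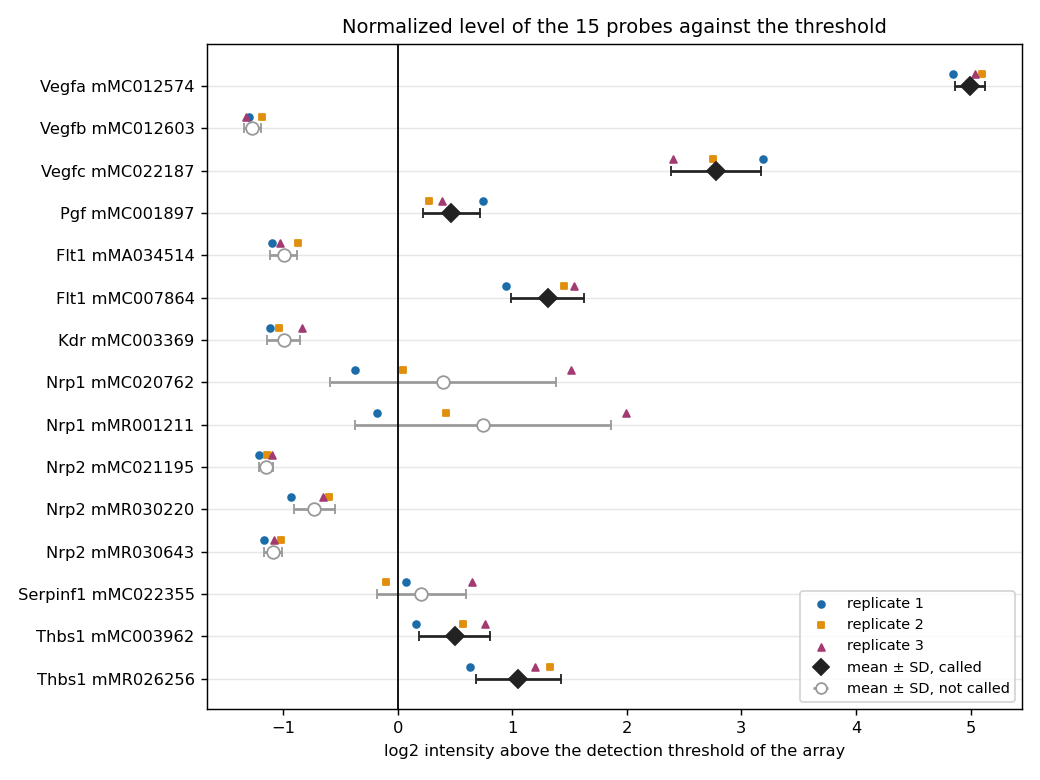
Normalised log2 intensity of the 15 probes above each array's detection threshold (vertical line at 0), with the 3 replicates as points beside their mean and SD, and called probes distinguished from the others. Vegfa (4.999 ± 0.13) and Vegfc (2.78 ± 0.39) stand clear of the line, Pgf and Thbs1 mMC003962 lie just above it, and the Nrp1 probes have the widest spread.

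Among the receptors, Flt1 was detected with 1 of its 2 probes. Flt1 binds VEGF-A tightly with weak kinase activity, and a secreted form that lacks the kinase acts as a trap for the ligand. Probe mMC007864 (NM_010228) gave intensities of 372, 288 and 196, above 93 of the 94 control spots on each array. Its level was 0.95, 1.45 and 1.53, a mean of 1.31 ± 0.32 (95% CI 0.96 to 1.66, adjusted p = 5.57e-04, limma). The other probe, mMA034514, gave intensities of 11, 17 and 12 and a level of -0.997 ± 0.11 (95% CI -1.20 to -0.79). The probes thus disagreed on every array, and the sources used here do not say which exons or transcript forms either of them covers.

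Kdr, the receptor that carries most of the endothelial growth response to VEGF-A, was read below the threshold on all 3 arrays. Probe mMC003369 (NM_010612) gave intensities of 10, 9 and 19, and the software did not find the spot on replicates 1 and 2. The level was -1.12, -1.04 and -0.84, a mean of -0.998 ± 0.14 (95% CI -1.22 to -0.78).

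Since Flt1 and Kdr are receptors of endothelial cells, the readings of endothelial markers are given beside them. None of the 15 endothelial markers on the array was detected (0 called by limma and 0 at an unadjusted p under 0.05). Their summed intensity, scaled by the array factors of the deposited values, was 1781, 1954 and 2682 in replicates 1, 2 and 3, and 1, 2 and 3 of the 15 genes were above the threshold. Pecam1, Cdh5 and Vwf were singled out after their values were seen, as defining markers of endothelium. Pecam1, a junction protein, had intensities of 78, 87 and 50 and a level of -0.09 ± 0.27. Cdh5, VE-cadherin, read -0.76 ± 0.21, and Vwf, von Willebrand factor, read -0.83 ± 0.09. The endothelial transcription factor Erg and the surface protein Clec14a both read -1.07. Cldn5 (0.18 ± 0.33) and Plvap (0.15 ± 0.17), also chosen after their values were seen, had the highest means of the list. Each was above the threshold on 2 of the 3 arrays, and neither was called. The endothelial count was sensitive to the threshold, and with the 90th percentile of the controls 7 of the 15 were called. The share of all named genes at that percentile is not given here. None of 5 macrophage markers was detected either (0 at an unadjusted p under 0.05), while 2 of 4 red blood cell markers were, with the haemoglobin gene Hba-a1 at 7.04 ± 0.13. The part of vascular cells or blood in the Flt1 reading was not tested.

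Nrp1, neuropilin-1, is a coreceptor of Kdr and a receptor of class 3 semaphorins, and it was the member that differed most between replicates. Its probe mMC020762 (NM_008737) gave intensities of 76, 76 and 192. The level was -0.37, 0.05 and 1.51, a mean of 0.39 ± 0.99 (95% CI -0.55 to 1.34, adjusted p = 0.574, limma). Its other probe, mMR001211, gave intensities of 104, 113 and 283. The level was -0.18, 0.42 and 1.99, a mean of 0.74 ± 1.12 (95% CI -0.33 to 1.82, adjusted p = 0.243, limma). Both probes thus read highest on replicate 3, by 1.67 and 1.87 over the mean of the other replicates, although replicate 3 was the dimmest array. Of the 10980 mouse probes above the threshold on replicate 3, 244 (2.22%) stood at least as far above the other replicates as the lower of the Nrp1 probes. Neither probe was called, and without replicate 3 their levels were -0.19 and 0.14. The second probe was called with the 90th percentile as threshold (adjusted p = 0.0321, limma) and with no or median scaling (adjusted p = 0.0367, limma). It was also called by a mean deposited value above 500, with a mean of 689. With no or median scaling the p-values followed the level and not the probe's own spread. The value of 0.0367 therefore does not measure the difference between the Nrp1 replicates.

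The rod markers, as a list, also summed highest on replicate 3. Of the 10 rod markers, 1 was detected, and 3, 4 and 6 were above the threshold on replicates 1, 2 and 3. Their summed intensity on the same scale was 5436, 4384 and 24404, and their median level was -0.62, -0.45 and 1.63. Gnat1, the rod transducin subunit and the detected gene of the list with 1 of its 2 probes, read 2.72, 2.71 and 4.95. Of 7 fibroblast markers, 1 was detected, the proteoglycan Dcn with 1 of its 4 probes, and 1, 1 and 4 were above the threshold. The fibroblast list summed to 3063, 1757 and 8773, with Dcn at 2.12, 1.47 and 4.17 and Col1a1 at -1.02, -0.90 and -0.90. Of 5 markers of Mueller glia, 2 were detected, and the list summed to 21880, 16963 and 18429, highest on replicate 1. Within it the glutamate transporter Slc1a3 read -0.24, -0.59 and 1.23, while the glutamine synthetase Glul read 4.34, 4.34 and 4.62. The summed intensity of the 12 RPE markers was 629362, 765645 and 685223, highest in replicate 2. The part of rods or other cells in the Nrp1 reading of replicate 3 was not tested, and in such bulk samples fewer cells of a type and less RNA per cell cannot be told apart.

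Nrp2, the coreceptor of the lymphatic receptor Flt4, was below the threshold with each of 3 probes (NM_010939). Probe mMC021195 gave intensities of 5, 5 and 9, probe mMR030220 gave 21, 31 and 25, and probe mMR030643 gave 7, 10 and 10. The levels were -1.15 ± 0.06, -0.73 ± 0.18 and -1.09 ± 0.08, and the highest upper 95% limit among them was -0.49. With plain background subtraction the levels were -3.69, -1.58 and -3.14, so the distance below the threshold depends on the background correction. Here the probes agreed, in contrast to those of Flt1.

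**Figure D3:**
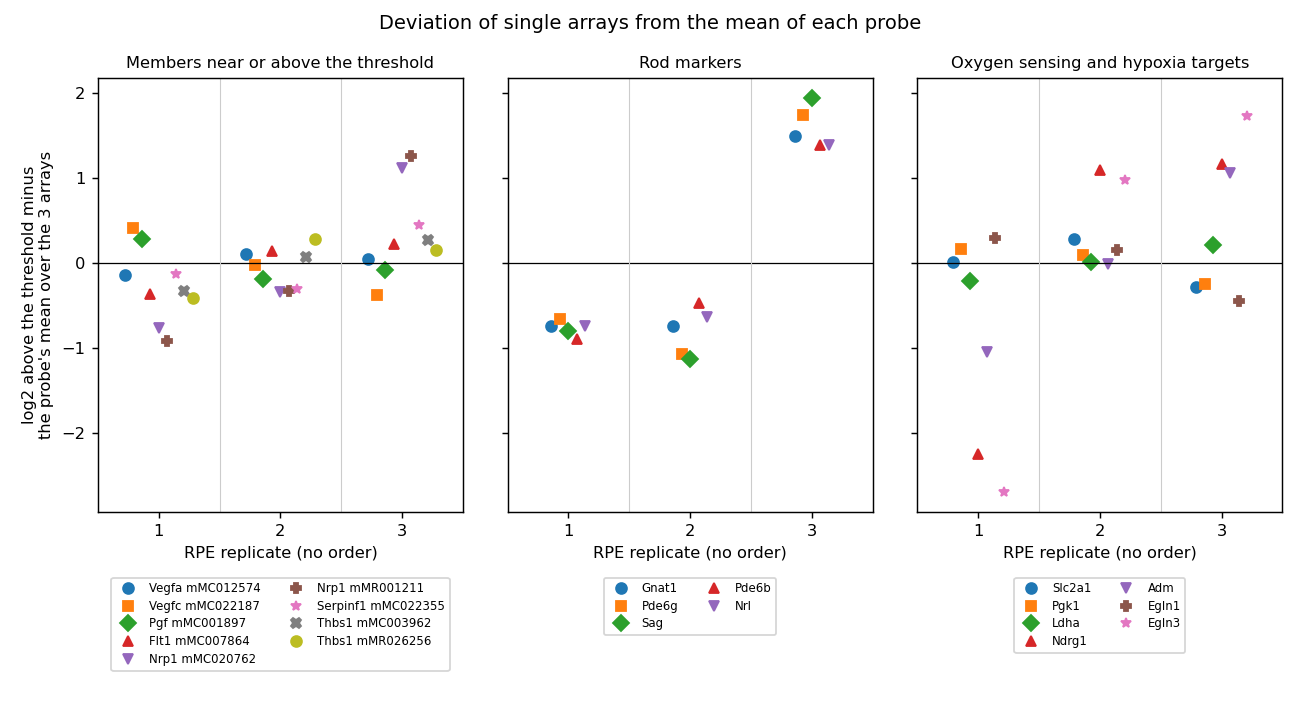
Level of single probes on each array minus the probe's mean over the 3 arrays (log2), for member probes with a mean above the threshold, 5 of the 10 rod markers, and 7 genes of oxygen sensing and hypoxia targets, the markers and these genes chosen after their values were seen. The Nrp1 probes and the rod markers lie above 0 on replicate 3, whereas Egln3, Ndrg1 and Adm lie below 0 on replicate 1. Adm lies about as far above 0 on replicate 3.

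Among the inhibitors, Serpinf1 was read at the threshold and not called. Its product, pigment epithelium-derived factor, is a secreted serpin without protease inhibitor activity that restrains endothelial growth. Probe mMC022355 (NM_011340) gave intensities of 146, 64 and 97, above 90, 88 and 92 of the 94 control spots. The level was 0.07, -0.10 and 0.65, a mean of 0.21 ± 0.39 (95% CI -0.20 to 0.61, adjusted p = 0.434, limma). Replicate 2 lay below the threshold and the other two above it, with replicate 3 highest, as for Nrp1. With the 90th percentile of the controls as threshold the gene was called (level 0.89, adjusted p = 0.00593).

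Thbs1, thrombospondin-1, is a matrix protein that acts on endothelial cells through Cd36 and Cd47, and both of its probes (NM_011580) were called. Probe mMR026256 gave intensities of 274, 257 and 153, above 93 of the 94 control spots on each array. Its level was 0.63, 1.33 and 1.20, a mean of 1.05 ± 0.37 (95% CI 0.66 to 1.44, adjusted p = 0.00230, limma). Probe mMC003962 gave intensities of 162, 131 and 107 and levels of 0.16, 0.57 and 0.76, a mean of 0.50 ± 0.31 (95% CI 0.16 to 0.83, adjusted p = 0.0267, limma). Replicate 1 was the lowest with both probes. The call of mMC003962 was kept in 4 of the 10 tested alternatives that gave an adjusted p. It was lost without replicate 2 (adjusted p = 0.171, limma), with plain background subtraction (0.0635), with no or median scaling (0.156) and on the deposited normalised values (0.103). The rule of a mean deposited value above 500 lost it as well, with a mean of 456. The call of mMR026256 was kept in 9 of these 10. The exception was the 99th percentile of the controls as threshold (level 0.23, adjusted p = 0.624, limma), where mMC003962 was lost too.

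The other genes of the pathway were taken from a list of 76 genes in 8 roles, 73 of which were on the array. Of these, 30 were detected (41.1%, beside 39.8% of all named genes), with a median level of -0.22 beside -0.18 over all named genes. Counting only genes with over 50% of their probes called, 18 were detected. The share of all named genes under that rule is not given here, so the 18 cannot be set beside it. Each gene is represented here by its probe with the largest moderated t. Of the detected genes named below, Pdgfc, Fgf1, Sema3b, Sema3f, Plxna2, Col18a1, Lrp1 and Src had only 1 of 2 probes called. Pnpla2 and Egln1 had only 1 of 3 called. Their levels below are those of the called probe.

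Of 11 other growth factors, 4 were detected. Pdgfa, a platelet-derived growth factor, read 4.73 ± 0.14, and Angptl4, a secreted lipase inhibitor of the angiopoietin-like family, read 4.69 ± 0.57 with 1 of its 3 probes called. Pdgfc (2.94 ± 0.32) and Fgf1 (2.42 ± 0.43) were also detected, whereas Pdgfb (-0.99 ± 0.11), Hgf (-1.06 ± 0.20) and Fgf2 (-1.14 ± 0.18) were below the threshold. Of 10 other receptors, 2 were detected, the fibroblast growth factor receptor Fgfr2 at 6.87 ± 0.20 with 1 of 4 probes called, and Pdgfrb, the receptor of pericytes for Pdgfb, at 1.45 ± 0.22. None of 7 pericyte markers was detected (1 at an unadjusted p under 0.05, limma). Their lowest mean was Rgs5 at -1.03 ± 0.16 and their highest Des at 0.22 ± 0.16. The part of pericytes in the Pdgfrb reading was not tested. The angiopoietin receptor Tek (-0.95 ± 0.05), the endothelial coreceptor Eng (-0.90 ± 0.11) and the apelin receptor Aplnr (-1.10 ± 0.09) were below the threshold.

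The semaphorins and plexins are the other partners of the neuropilins, and 4 of 10 were detected. Sema3c (5.20 ± 0.43), Sema3b (4.70 ± 0.24) and Sema3f (3.90 ± 0.36), secreted class 3 semaphorins, were far above the threshold, and the plexin Plxna2 read 1.16 ± 0.22. The class 3 semaphorins Sema3a (-1.12 ± 0.02) and Sema3e (-1.08 ± 0.07) were below it.

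Of 11 other inhibitors, 6 were detected. Timp3, a matrix-bound metalloproteinase inhibitor that also blocks binding of VEGF-A to Kdr, read 8.10 ± 0.13, and Timp2 read 6.98 ± 0.25. Col18a1, the collagen from which endostatin is cleaved, read 4.04 ± 0.12, and the secreted serine protease Htra1 read 1.72 ± 0.36. The chemokines Cxcl10 (-0.56 ± 0.13) and Cxcl9 (-0.76 ± 0.22) and vasohibin, Vash1 (-0.60 ± 0.21), were not called. Of 8 receptors of the inhibitors, 3 were detected. Those were Lrp1 (3.99 ± 0.27) and Cd47 (3.78 ± 0.18), which bind thrombospondin-1, and Pnpla2 (3.55 ± 0.11), a lipase that binds pigment epithelium-derived factor. Cd36, another thrombospondin receptor, read -1.08 ± 0.11.

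Vegfa transcription is known to rise with hypoxia-inducible factors, whose alpha subunits are hydroxylated by the Egln enzymes and then bound by the ubiquitin ligase component Vhl. Of 9 genes of oxygen sensing, 4 were detected, with Egln2 at 2.57 ± 0.28, Vhl at 1.96 ± 0.12, Egln1 at 1.66 ± 0.39 and Epas1, which encodes HIF-2 alpha, at 1.07 ± 0.25. Hif1a (-0.24 ± 0.04), Hif3a (-0.30 ± 0.12) and Hif1an (-1.02 ± 0.19) were not called. Of 7 hypoxia targets, 4 were detected. The glucose transporter Slc2a1 read 5.96 ± 0.28, and the glycolytic enzymes Pgk1 and Ldha read 5.55 ± 0.22 and 5.26 ± 0.22. Car9 (-1.02 ± 0.16) and Bnip3 (-0.72 ± 0.26) were below the threshold.

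Ndrg1 and Egln3 stood apart on replicate 1. The stress-response gene Ndrg1 gave intensities of 155, 1286 and 878 and levels of 0.12, 3.46 and 3.53, a mean of 2.37 ± 1.95 (adjusted p = 0.0427, limma). Its call was lost without replicate 2 (adjusted p = 0.268) or replicate 3 (adjusted p = 0.0666). Adm, the vasoactive peptide adrenomedullin, gave intensities of 14, 72 and 138. Its levels were -1.04, -0.004 and 1.07, a mean of 0.01 ± 1.05. Egln3, singled out after its values were seen, gave intensities of 5, 617 and 696 and a level of 1.48 ± 2.36 (adjusted p = 0.269, limma). Replicate 1 minus the mean of the other replicates was -3.37 for Ndrg1 and -4.04 for Egln3, and the cause was not tested. For Adm it was -1.57, and replicate 3 minus the mean of the others was 1.59. Adm thus differed as much on replicate 3 as on replicate 1. For Vegfa the level on replicate 1 was 4.85 beside 5.10 and 5.04, and for Slc2a1 it was 5.97 beside 6.24 and 5.68.

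Of 7 proteins that carry the signal of VEGF receptors, 3 were detected: the kinases Ptk2 (4.23 ± 0.20) and Src (1.01 ± 0.18) and the adaptor Grb2 (2.41 ± 0.08). The adaptor Nck1 read -0.75 ± 0.31. Nos3, the endothelial nitric oxide synthase, read -0.998 ± 0.15 and Plcg1, a phospholipase, -1.09 ± 0.16.

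**Figure D4:**
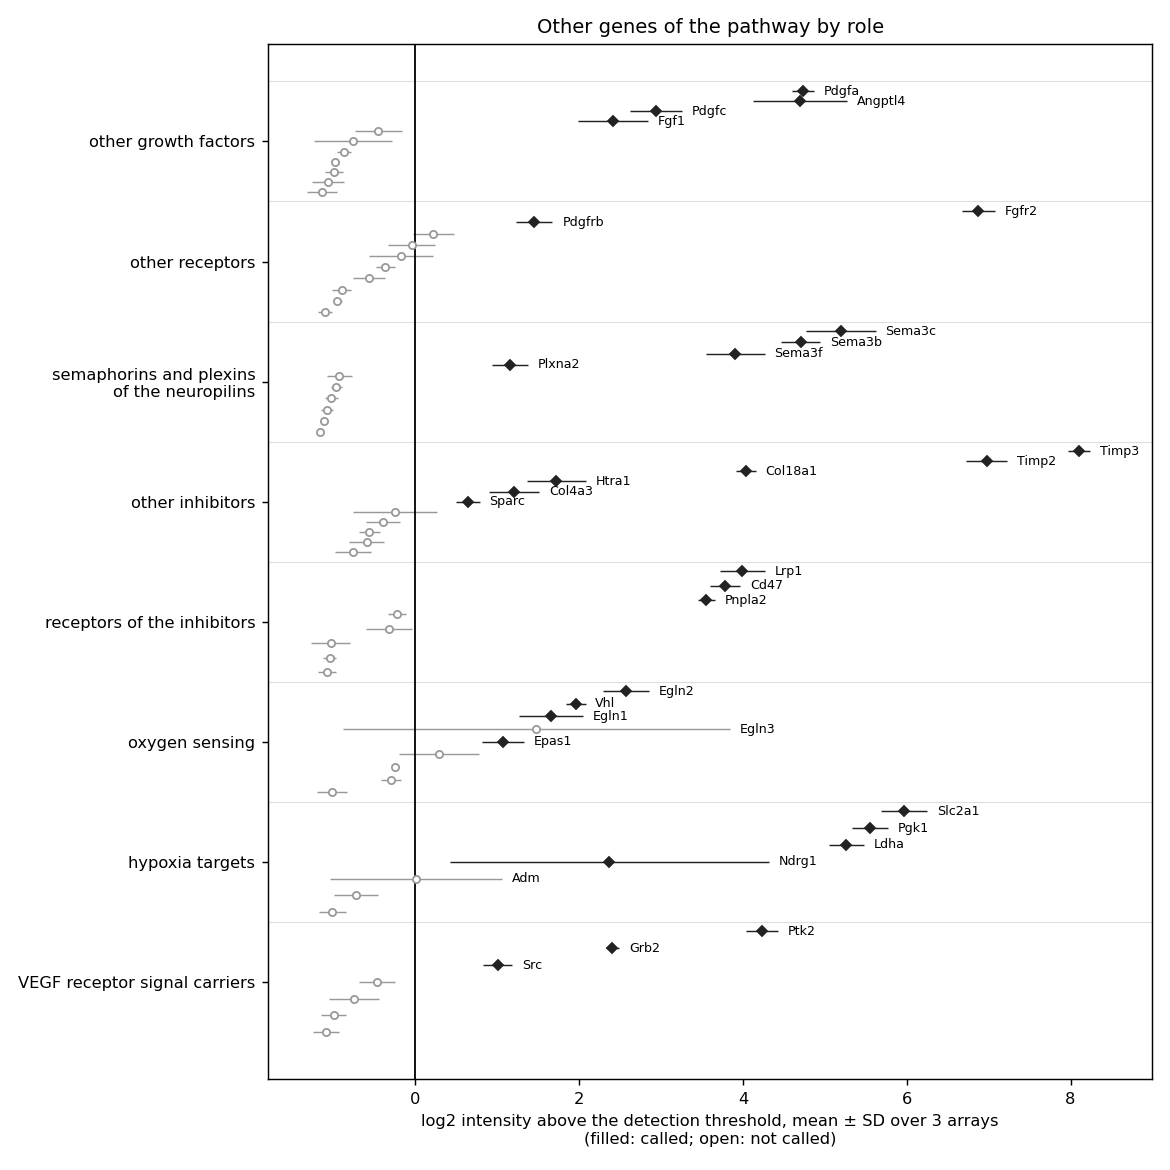
Mean level with SD over 3 arrays of 73 other pathway genes by role, in log2 intensity above the detection threshold (line at 0), with filled symbols for called genes and open symbols for the others. The secreted inhibitors Timp3 (8.10) and Timp2 (6.98) lie far to the right, and Egln3 and Ndrg1 have the widest bars.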

How the data were processed

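The deposited scanner tables hold foreground and background intensity per spot in 1 channel (GenePix Pro 4.1.1.4, per the file headers). The deposited normalised values, treated as a score, equal an array factor set by the authors (2.17, 3.64 and 5.05) times foreground median minus background median, raised to at least 1. They lack 790 mouse probes and no member probe. The files named no genome build. Array totals are given with the report, and the number of arrays (3) limits the precision.

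Intensities were corrected with normexp (offset 50), taken to log2 and quantile normalised over the mouse and negative control spots (limma 3.58.1, R 4.3.3). The offset draws dim spots together, so levels, SDs and intervals below the threshold are compressed. Vegfb read -1.27 with it and -5.52 with plain background subtraction. The sources used here do not say what the 94 control spots hold. Each probe's log2 value minus the 95th percentile of the controls on its array was fitted with an intercept (lmFit, eBayes) and tested one-sided, with Benjamini-Hochberg adjustment over 35078 probes. The code was tested on simulated data. Probes were named by accession through RefSeq (GRCm38.p6, names only), which gave 1 gene for 23071 probes and none for 12007. There were 0 unused columns of other samples.

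Members and lists were chosen with earlier results of these data known. Named were all member probes, up to 4 called genes by moderated t and up to 3 uncalled genes by lowest mean in each role, and up to 3 of each in each marker list. Other names are given as chosen after their values were seen. Alternatives were other control percentiles (90 and 99), background corrections, scalings, the deposited values, a deposited mean above 500, dim probes left out, over 50% of probes called, and each replicate left out.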

Additional observations from a re-analysis of the deposited data

How the results depend on the processing

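The main settings called 6 member probes and 5 member genes, 30 other pathway genes and 0 endothelial markers. With the 99th percentile of the controls as threshold, 3 member probes and 3 member genes were called. The levels then turned below 0 for Pgf (-0.36), both Nrp1 probes (-0.43 and -0.082), Serpinf1 (-0.62) and Thbs1 mMC003962 (-0.33). With this threshold, and with no or median scaling, limma's p-values followed the level and not the probe's own spread. At the 99th percentile the rod gene Sag (SD 1.68) had a level of 0.55 and an adjusted p of 0.0138. Flt1 mMC007864 (SD 0.32) had 0.48 and 0.0385. With the 90th percentile, 7 endothelial markers were called. With over 50% of the probes as the rule for a gene, 4 member genes and 18 other pathway genes were detected. Flt1, with 1 of its 2 probes called, was the member gene lost. Shares over all probes or named genes are not given here for the 90th and 99th percentiles or the 50% rule. These changes in count therefore cannot be set against the whole array. Without each replicate in turn, 5 to 6 member probes and 4 to 5 member genes were called. The level then ranged from -0.19 to 0.69 for Nrp1 mMC020762 and from -0.016 to 0.36 for Serpinf1. Vegfa, Vegfc and Flt1 mMC007864 were called under all 10 tested alternatives that gave an adjusted p. These 10 were not all separate checks. No scaling and median scaling gave identical results, since each array's own threshold is subtracted. Leaving out dim probes kept the levels of the main fit. Other counts of calls stayed within 1.5 times of the main ones. No paired analysis was possible because there is 1 group. Negative controls as bright as 1623, 729 and 265 on the 3 arrays limit what can be said of probes near the threshold, and 3 replicates leave wide intervals.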
